A study of Arabidopsis thaliana with 6 samples.

Results

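The SWEET genes of Arabidopsis encode small membrane proteins that let sugars cross a membrane down their concentration gradient. The 9 genes described here are SWEET1, SWEET2, SWEET4, SWEET10, SWEET11, SWEET12, SWEET13, SWEET16 and SWEET17. A member was taken where the array annotation gave it a probe set of 1 gene, with gene symbols updated by gene number. This held for 8 of the 9 members, each with a single probe set, among 22746 Arabidopsis probe sets and 13286 genes named in the same way. SWEET12 had no probe set named here and was not analysed.

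SWEET proteins need no proton gradient, unlike the sugar symporters, and are sorted into clades that differ in the sugar they prefer and in their membrane. In a leaf, sucrose made in the mesophyll moves cell to cell towards the veins. SWEET11 and SWEET12 release it from phloem parenchyma cells to the cell wall, from where SUC2, a sucrose-proton symporter, loads it into the phloem. Clade IV proteins sit in the vacuolar membrane. The bundle sheath is the cell layer around the veins, so that sugars and minerals pass it on their way between vein and mesophyll.

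The arrays compared bundle sheath cells (BSCs) with mesophyll cells (MCs). Protoplasts came from leaves of transgenic Landsberg (Ler) plants, all carrying green fluorescent protein under the SCARECROW promoter (SCR:GFP). Both cell types were released by the same brief enzyme digestion of the cell walls, and no other treatment is named. The study does not exclude that the cell types responded differently to this digestion. BSC protoplasts were picked by hand for their fluorescence and smaller size and MC protoplasts for their lack of fluorescence, and the age of the plants was not given in the sources used here. RNA of 20 protoplasts was amplified 3 times and hybridized to 1 ATH1 array, with 3 arrays per cell type, and the arrays keep the numbers of their labels (3, 5 and 7 for BSCs, and 4, 6 and 8 for MCs).

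Levels are given as log2(NREL), the log2 of the normalized raw expression level of a probe set. Of 29 genes fixed as markers of bundle sheath, phloem, mesophyll, guard cells, epidermis and xylem, 0 had a probe set named here, so the labels could not be checked against them. The 7 nuclear genes of the photosystems and their antenna with a name (PSAE-1, PSAN, PSBW, PSBY, LHCB4.1, LHCB4.2 and LHCB4.3), a list added after the data were seen, had lower means in BSCs, and 0 of them passed the thresholds given below. Their median level was 6.42, 5.12 and 2.92 on BSC arrays 3, 5 and 7 and 5.98, 7.69 and 5.28 on MC arrays 4, 6 and 8. The median of their log2 differences, BSC minus MC, was -1.40. It was -2.14 without BSC array 3, with 3 past the thresholds, and -2.13 without MC array 8, with 1 past. Without BSC array 5 and without MC array 4 it was -1.67 and -1.33, with 0 past. Without MC array 6 it was -0.99, with 6 of the 7 lower in BSCs and 0 past. Without BSC array 7 it was -0.62, with 0 past. BSC array 7 also stood apart over all probe sets, with 78 at a log2(NREL) of 5 or more against 406 to 1157 on the others. It had the smallest 3-prime minus 5-prime difference of the ubiquitin control probe sets, 0.90 against 3.63 to 4.50. The mean of the bioB control probe sets was highest there, 8.94 against 4.89 to 7.01. The cause of these values on BSC array 7 was not tested. For members whose sign or size turned on this array, the value without it is given as well.

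None of the 8 members passed the test between BSCs and MCs, and the arrays of both cell types overlapped for all of them but SWEET10. Over all 22746 probe sets, 649 had all BSC arrays below all MC arrays and 715 had them all above. The cut-offs were those of the study, p below 0.05 before adjustment together with a 1.5-fold change in either direction. They were applied to limma, which fits a linear model per probe set and steadies its variance with that of the others. By these 0 of the 8 members were called, against 0.501% of all probe sets. At an unadjusted p under 0.05 with any fold change the count was 0 of 8 in limma, where 1.6% of all probe sets had such a p, and 0 of 8 in the methods' t-test, where 2.26% had one. With so low a background a count of 0 among 8 genes is no result about the members. After Benjamini-Hochberg adjustment the smallest limma p of the 8 was 0.999977. Means were higher in BSCs for 4 members and lower for 4, with log2 differences between -0.21 and 0.22. Their median was -0.03, beside 0.01 over all probe sets.

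**Figure D1:**
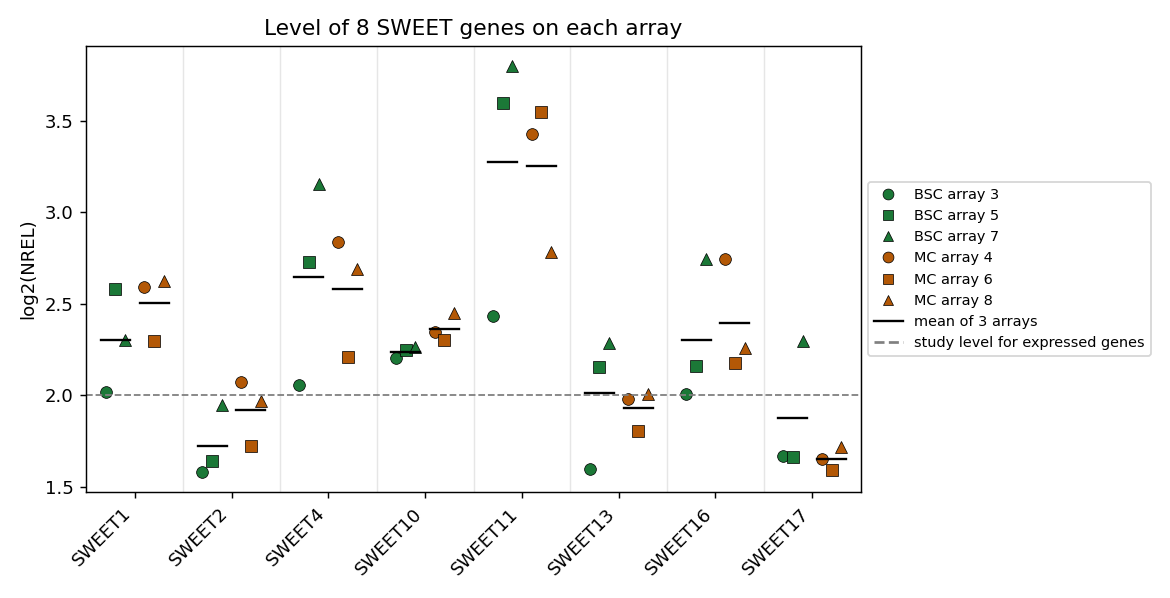
The log2(NREL) of 8 SWEET genes on each of the 6 arrays, BSC arrays in green and MC arrays in orange, with bars at the mean of the 3 arrays of a cell type and a dashed line at 2. The points of both cell types overlap for every gene but SWEET10, and SWEET11 spans the widest range, from 2.43 to 3.80.

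Among the clade III genes, which mainly carry sucrose, SWEET11 was the only member with a log2(NREL) of 3.5 or more on any array. Of the 22746 probe sets 3460 had such an array, so this is no result about the members. The study calls a gene highly expressed at a mean of 3.5 in a cell type, which SWEET11 did not reach in either. Its levels were 2.43, 3.60 and 3.80 on BSC arrays 3, 5 and 7 and 3.43, 3.55 and 2.78 on MC arrays 4, 6 and 8. Each cell type thus had 1 low array, and the BSC arrays enclosed all MC arrays. BSCs had a mean of 3.28 ± 0.739 (SD, n = 3), and the MC mean was 3.25 ± 0.41 (SD, n = 3). The log2 difference, always given as BSC minus MC, was 0.02 with a standard error of 0.41. Its 95% confidence interval, the widest of the 8 members, covers a level in BSCs from 0.499 to 2.07 times that in MCs. The sign depended on the arrays used, with -0.24 without BSC array 7, -0.14 without BSC array 5 and -0.21 without MC array 8. In the other direction it was 0.45 without BSC array 3 and 0.36 with array weights. After quantile normalization it was 0.52 (standard error 0.70).

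SWEET10 was the single member whose arrays did not overlap between the cell types. This sucrose transporter of clade III is known for its induction in the shoot apex at flowering. The BSC arrays had 2.21, 2.25 and 2.26 and the MC arrays 2.34, 2.30 and 2.45, so that the lowest MC array lay just above the highest BSC array. For comparison, 2.85% of all probe sets (649 of 22746) had all BSC arrays below all MC arrays. Another 715 had all BSC arrays above all MC arrays. At such shares 1 gene of 8 without overlap is no result about the members. The log2 difference was -0.13 (standard error 0.09), with an interval from -0.35 to 0.10 and an unadjusted p of 0.223 in limma across all probe sets. In the methods' t-test, run per gene on the same values, its p stayed just above the threshold. A level in BSCs of 0.782 to 1.07 times that in MCs covers the interval. The study lists SWEET10 among the transporter genes that differed at a p of 0.05 or below, with no limit on fold change. That list was chosen on these same arrays, so the direction of SWEET10 here is not independent evidence. Neither test here gave SWEET10 a p that low, the methods' t-test giving 0.0534. The study's own p for SWEET10 lay well below its cut-off, so its analysis of variance was not reproduced here. The reason was not tested. Of the 8 members SWEET10 had the narrowest range over the 6 arrays, 0.24 on the log2 scale.

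SWEET13, a sucrose transporter that acts in anthers, had 1.60, 2.16 and 2.29 on BSC arrays 3, 5 and 7. On MC arrays 4, 6 and 8 it had 1.98, 1.80 and 2.01, all within the range of the BSC arrays. The log2 difference was 0.08 (standard error 0.20; 95% confidence interval -0.42 to 0.58) and changed sign to -0.055 without BSC array 7. Without BSC array 3 it was 0.29. SWEET10 and SWEET13 are next to each other on 1 chromosome in the TAIR10.1 gene table, with 0 annotated genes between them. SWEET13 was highest on BSC array 7, and SWEET10 on MC array 8.

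In clade I, SWEET1, a glucose transporter of the plasma membrane, had 2.02, 2.58 and 2.30 on BSC arrays 3, 5 and 7. Its values were 2.59, 2.30 and 2.63 on MC arrays 4, 6 and 8. BSC array 3 was the lowest, while BSC array 5 lay just below the upper MC arrays. The log2 difference was -0.21 (standard error 0.18; interval -0.65 to 0.24), the largest in favour of MCs among the 8, which was -0.065 without BSC array 3 and -0.35 without BSC array 5. SWEET2, a transporter of the vacuolar membrane known from roots, had 1.58, 1.64 and 1.95 in BSCs and 2.07, 1.72 and 1.97 in MCs. Its log2 difference was -0.20 (standard error 0.15; interval -0.58 to 0.18), between -0.12 without MC array 4 and -0.31 without BSC array 7. SWEET2 reached a log2(NREL) of 2, the study's level for expressed genes, on MC array 4 alone.

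SWEET4, a clade II transporter of glucose and fructose in veins, varied most after SWEET11. It had 2.06, 2.73 and 3.15 on BSC arrays 3, 5 and 7 and 2.84, 2.21 and 2.69 on MC arrays 4, 6 and 8. The groups overlapped fully, the lowest and the highest array both being BSC arrays. Its log2 difference of 0.07 (standard error 0.32; interval -0.72 to 0.86) became -0.19 without BSC array 7 and -0.12 without MC array 6. Without BSC array 3 it was 0.36.

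The clade IV genes encode carriers of the vacuolar membrane, and each was high on BSC array 7. SWEET16 had 2.01, 2.16 and 2.74 on BSC arrays 3, 5 and 7 and 2.75, 2.18 and 2.26 on MC arrays 4, 6 and 8. Thus 1 array of each cell type was high and the others lay close together. The log2 difference of -0.09 (standard error 0.25; interval -0.72 to 0.54) turned to 0.058 without BSC array 3 and to 0.085 without MC array 4. Without BSC array 7 it was -0.31. SWEET17, a fructose transporter of the vacuole, had 1.67, 1.66 and 2.30 in BSCs and 1.65, 1.59 and 1.72 in MCs. It was high on BSC array 7 alone, while the other BSC arrays fell within the MC range. This gave the largest difference in favour of BSCs, 0.22 (standard error 0.20; interval -0.26 to 0.71), which was 0.01 without that array.

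Ranks within each array show where these values lie among all probe sets. They give the place of a probe set on its own array and are not used to compare one SWEET gene with another, since the signal of a probe set also depends on its probes. SWEET11 was above the 77th percentile on every array and reached 97.6 on BSC array 7. SWEET10 kept the steadiest place, between 65.2 and 76.9. SWEET1 lay between 60.4 and 82.8, SWEET16 between 59.5 and 85.8, and SWEET4 between 62.8 and 93.1. SWEET2 stayed below the middle on 5 of the 6 arrays, with 55.9 on MC array 4. SWEET13 ranged from 19.8 on BSC array 3 to 66.6 on BSC array 7, against 42.5 to 48.9 on the MC arrays. SWEET17 was at 67.3 on BSC array 7 and between 14.6 and 27.9 on the other 5. The level of 2 lies near the array medians, 1.88 to 2.06, so passing it need not mean that a transcript was detected. At this level or above on all 6 arrays were 5 of the 8 members (SWEET1, SWEET4, SWEET10, SWEET11 and SWEET16), beside 5830 of the 22746 probe sets.

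**Figure D2:**
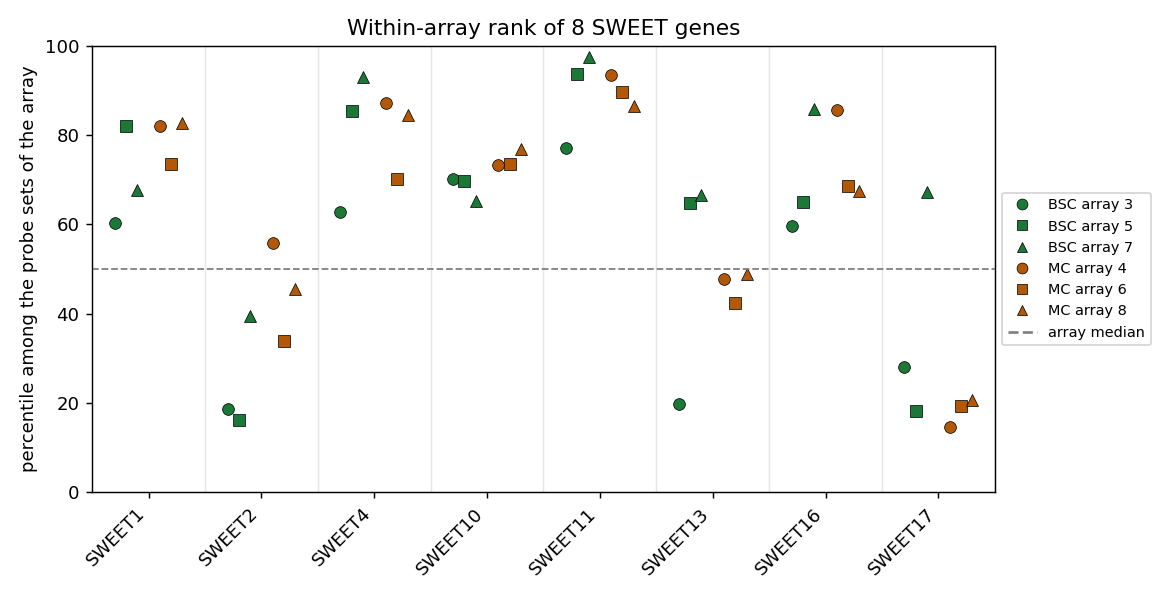
Percentile of 8 SWEET genes among the 22746 probe sets of each array, with a dashed line at the array median. SWEET11 is above the 77th percentile on all 6 arrays, and SWEET17 rises above the median on BSC array 7 only.

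Some arrays were low or high for most members. BSC array 3 was the lowest of the 6 arrays for 7 of the 8 members (all but SWEET17), where it was the lowest for 30.3% of all probe sets. BSC array 7 was the highest for 4 members (SWEET4, SWEET11, SWEET13 and SWEET17), against 33.6% of all probe sets. MC array 6 was the lowest for 1 member, SWEET17, against 28.0% of all probe sets. The arrays also differed in low-level signal. On BSC array 3, 9286 probe sets had a log2(NREL) of 2 or more, on MC array 6 there were 9377, and on BSC array 7 there were 12627, with 10795 to 11723 on the others. The median level of the 8 members was 2.01, 2.20 and 2.30 on BSC arrays 3, 5 and 7 and 2.47, 2.20 and 2.35 on MC arrays 4, 6 and 8. Without BSC array 3 the median difference of the members was 0.17, and without BSC array 7 it was -0.20. Whether these differences in low-level signal set the members' values was not tested.

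**Figure D3:**
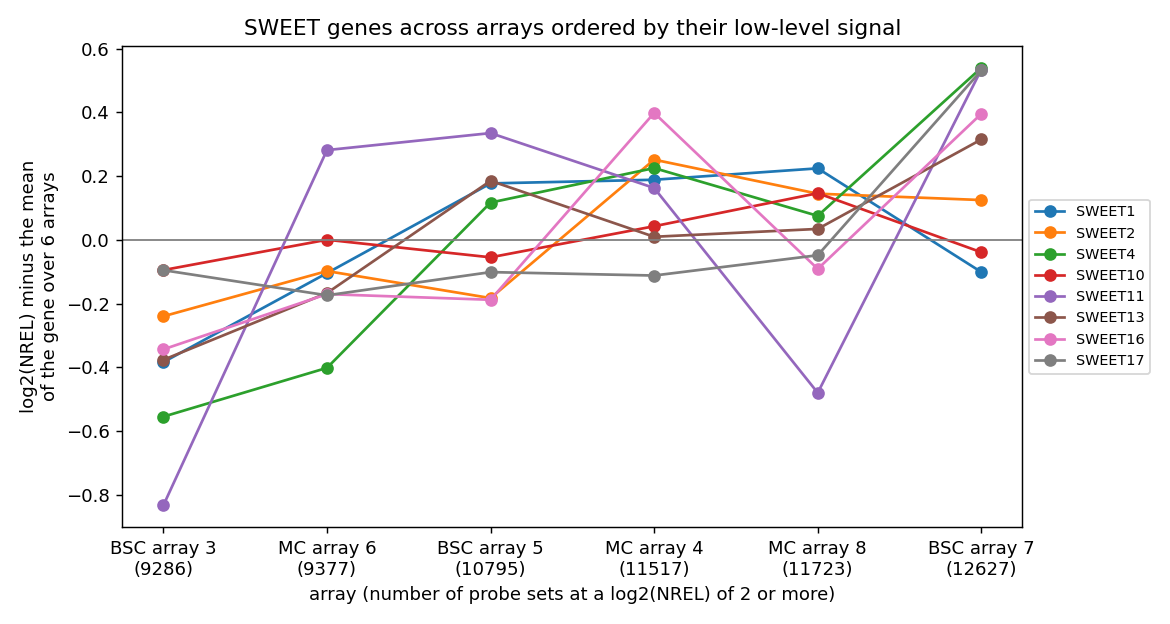
Deviation of each of 8 SWEET genes from its own mean over the 6 arrays, in log2 units, with the arrays ordered by their number of probe sets at a log2(NREL) of 2 or more. All 8 genes are below their mean on BSC array 3 (9286 probe sets), and 6 are above it on BSC array 7 (12627).

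Over the 6 arrays, 25 of the 28 pairs of members had a positive Pearson r, with a median of 0.579. The closest pair was SWEET4 and SWEET13 (r = 0.939). The pairs share the 6 arrays and their differences in low-level signal, so this is a description only. For the 2 members with the highest mean, SWEET11 and SWEET4, the genes most alike were sought among the other 13278 named genes. Nearest to SWEET11 were AT4G05500 (r = 0.991), AT5G46000 (r = 0.976) and AT2G43280 (r = 0.972). Nearest to SWEET4 were AT1G08280 (r = 0.997), AT4G07350 (r = 0.996) and AT3G42940 (r = 0.996). AT4G05500, listed as a transcribed pseudogene, had levels from 1.64 on BSC array 3 to 1.82 on BSC array 7, and AT4G07350 from 1.34 to 1.74 on the same arrays. These likenesses thus include genes in the lowest part of the arrays' range.

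How large a difference in array signal could have been missed is shown by the intervals. For SWEET2, SWEET10 and SWEET13 the 95% confidence interval lay inside a fold change of 1.5 in both directions, as it did for 58.8% of all probe sets. The upper bound of SWEET13 was 1.498. For SWEET1, SWEET4, SWEET11, SWEET16 and SWEET17 a change larger than 1.5-fold was within the interval, and could not be told from 0 with 3 arrays per cell type. SWEET2 and SWEET13, with means of 1.82 and 1.97 over the 6 arrays, lay near the array medians, where a level need not mean detection. Their intervals therefore do not bound a difference in transcript. SWEET10, with a mean of 2.30, lay above the array medians, but its detection was not tested, so its interval bounds array signal only. Since each sample is a pool of picked protoplasts, fewer cells with a transcript and less RNA per cell cannot be told apart.

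**Figure D4:**
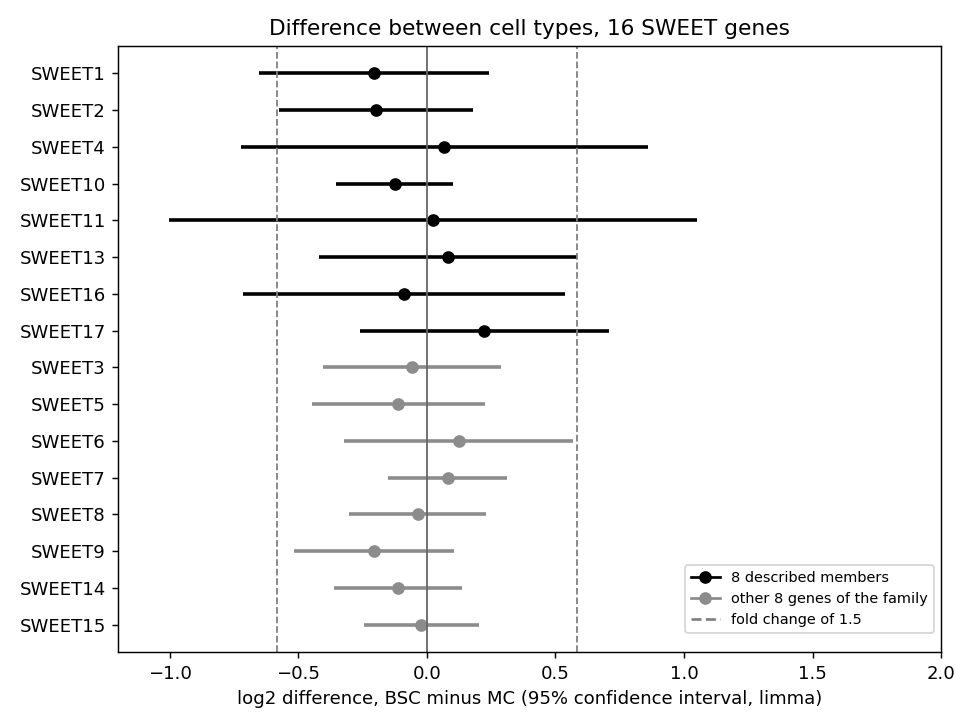
The log2 difference between BSCs and MCs with its 95% confidence interval from limma, for the 8 members (black) and the other 8 genes of the family with a probe set (grey), with dashed lines at a fold change of 1.5. All 16 intervals include 0, and 11 of them lie inside the dashed lines.

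The other genes of the family had no calls either. With SWEET3, SWEET5, SWEET6, SWEET7, SWEET8, SWEET9, SWEET14 and SWEET15, 16 of the 17 SWEET genes had a probe set, and 0 of the 16 had an unadjusted p under 0.05 by limma or by the methods' t-test, against 1.6% and 2.26% of all probe sets, so that 0 of 16 is no result about the family. SWEET9, the sucrose exporter of nectaries, had the smallest limma p of the 16, with 1.78, 1.99 and 2.13 in BSCs, 2.28, 2.1005 and 2.14 in MCs and a log2 difference of -0.21 (standard error 0.13; interval -0.52 to 0.11). Both cell types overlapped, by BSC array 7 and MC array 6. SWEET15, a sucrose transporter of seeds and senescing leaves, was the steadiest, between 2.40 and 2.52 on all 6 arrays. SWEET5 and SWEET8, known from pollen, had levels of 1.68 to 2.11 and of 1.82 to 2.05. The median range over the 6 arrays was 0.33 for these 8 genes and 0.70 for the 8 members, beside 0.54 over all probe sets.

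Few other genes of sugar transport and sucrose metabolism had a probe set named here. Of 51 other sugar transporter genes on the list there were 13, and 0 of them passed the thresholds by either test or had an unadjusted p under 0.05. Among all probe sets 0.501% passed in limma, and these counts of 0, like that of the 5 genes below, lie near that share. By group these were 4 of 14 monosaccharide-proton symporters, 6 of 10 vacuolar and ERD6-like carriers, 2 of 10 polyol and inositol carriers and 1 of 8 plastid carriers. None of the 9 sucrose-proton symporters, SUC2 among them, had one. Of 24 genes of sucrose synthesis and cleavage there were 5, and 0 of these passed or had an unadjusted p under 0.05 in either test on the deposited values.

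SFP1, a carrier of the ERD6-like group, had the widest gap between the cell types among the other transporters. It was at 5.87, 4.51 and 2.18 on BSC arrays 3, 5 and 7, and at 2.41, 2.55 and 2.38 on MC arrays 4, 6 and 8. BSC arrays 3 and 5 were far above all MC arrays, while BSC array 7 was below them. The log2 difference was 1.74 (standard error 0.90; interval -0.49 to 3.97) and did not pass. Without BSC array 7 it was 2.74 and passed, and without BSC array 3 it was 0.90 and did not. AT5G26250, of the monosaccharide symporters, had -0.19 (standard error 0.13), and AT2G18480, of the polyol carriers, -0.32 (0.24), which was -0.058 without BSC array 3 and -0.48 without BSC array 7.

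In sucrose synthesis the differences rested on MC array 6. ATSPS4F, a sucrose-phosphate synthase, was at 6.14 on this array and between 1.76 and 2.55 on the other 5, with a log2 difference of -1.57 (standard error 1.08), which was -0.28 without it. AT2G35840, a sucrose-phosphate phosphatase, was at 7.46 there and between 4.17 and 4.64 elsewhere, with a log2 difference of -1.04 (0.83), which was -0.06 without MC array 6. No SWEET member had its highest level on that array, where 13.1% of all probe sets had theirs, so this is no result about the members. cwINV6, listed with the cell wall invertases and known to cleave fructans, was at 1.39, 1.55 and 1.61 in BSCs and 1.75, 1.61 and 1.83 in MCs. BSC array 7 and MC array 6 had the same level, and the log2 difference was -0.21 (standard error 0.11). Its unadjusted limma p was 0.112, and 0.0336 after median centring, 0.0435 after quantile normalization and 0.0186 with array weights, at a fold change below 1.5 each time.

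**Figure D5:**
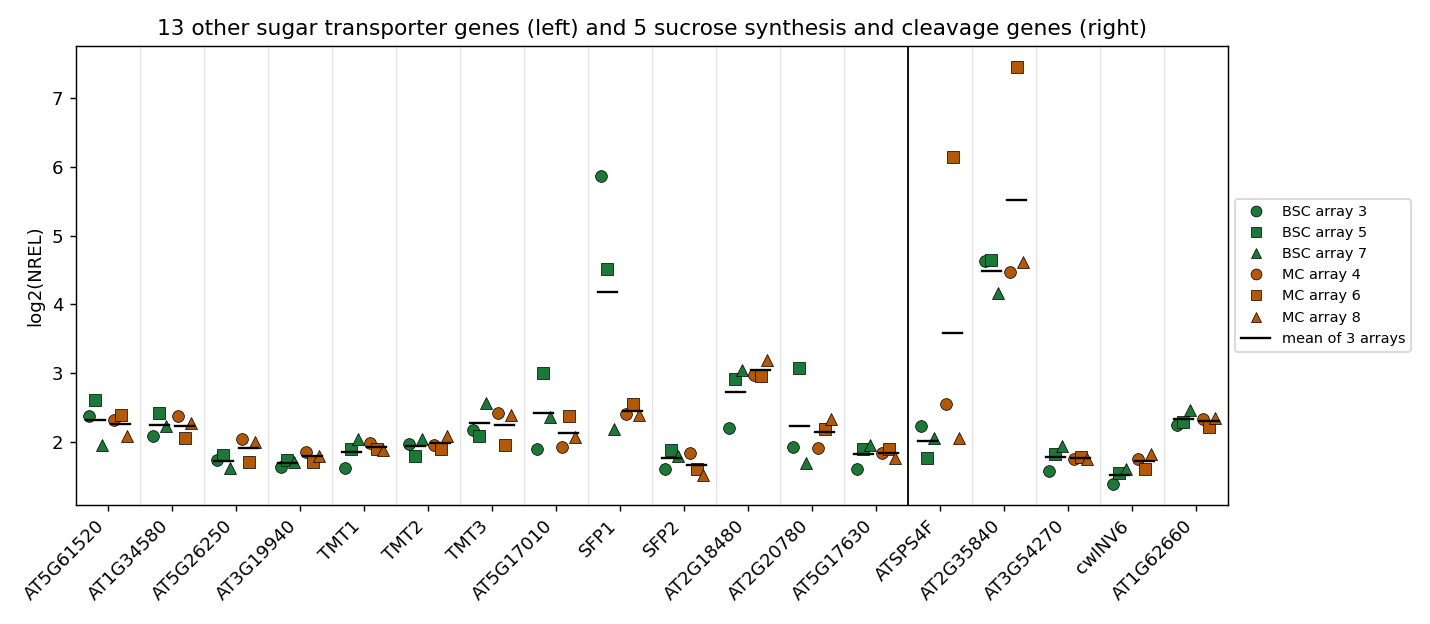
The log2(NREL) of 13 other sugar transporter genes (left of the line) and 5 genes of sucrose synthesis and cleavage (right) on each array, with bars at the mean of the 3 arrays of a cell type. SFP1 is high on BSC arrays 3 and 5, and ATSPS4F and AT2G35840 are high on MC array 6.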

How the data were processed

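Scanner files of the Affymetrix ATH1 arrays were summarized by the authors with robust multi-array averaging in the Partek software (version 6.6 in the submitters' processing notes, another in the paper). The deposited log2 values were used unchanged, though they did not share 1 distribution across arrays. Array medians ran from 1.88 to 2.06, and 78 to 1157 probe sets per array were at a log2(NREL) of 5 or more. The main model did not adjust for this. Control probe sets (64) were left out, and 22746 remained. Of 13513 probe sets with 1 annotated gene, 13436 matched the TAIR10.1 gene table, while 503 with several genes were not named. Members and lists were chosen with earlier results of these data known. Named were all members, the 3 genes of smallest p in each pathway list, and the 3 genes closest in Pearson r to each of 2 members.

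The cell types were compared over all probe sets with limma 3.58.1 (R 4.3.3), 2-sided, adjusted by Benjamini-Hochberg, after the script was tested on simulated data. The study used an analysis of variance for its arrays, and its 2-sided Student's test for means is called the methods' t-test. An exact permutation of 3 arrays against 3 cannot fall below 0.1 and was not used. The study calls the arrays biological replicates, and their number limits the precision. Alternatives were a trended prior, array weights, median centring, quantile normalization, ranks, a minimum mean of 2 and leaving out each array. Probe sequences were not used, so cross-hybridization within the family was not examined.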

Additional observations from a re-analysis of the deposited data

How the results depend on the processing

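The count of SWEET members past the thresholds was 0 under all 12 alternative fits. Of 101 member values under the alternatives, 10 changed sign. SWEET1, SWEET2, SWEET10 and SWEET17 kept their sign in every alternative run. On within-array percentiles SWEET4 turned to -0.19 and SWEET11 to -0.48 percentile points. With one array left out at a time, the log2 difference ranged from -0.19 to 0.36 for SWEET4, -0.24 to 0.45 for SWEET11, -0.055 to 0.29 for SWEET13 and -0.31 to 0.085 for SWEET16, -0.35 to -0.065 for SWEET1, -0.31 to -0.12 for SWEET2, -0.16 to -0.084 for SWEET10 and 0.013 to 0.33 for SWEET17, and the median of the members from -0.20 to 0.17. With array weights SWEET2 had a log2 difference of -0.35 and an unadjusted p of 0.00805 in limma, below a fold change of 1.5; BSC array 5 then carried a weight of 6.83 against 0.34 to 2.08 for the others, and the weights did not reach their convergence tolerance.

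Over all probe sets 114 passed in the main model, 41 in the methods' t-test, 885 with array weights, 256 after quantile normalization and 90 to 418 with one array left out. Of the other sugar transporter genes, 3 passed with array weights and 0 to 1 with one array left out, the latter being SFP1 without BSC array 7. The cause of these changes was not tested. With a minimum mean of 2, SWEET2, SWEET13 and SWEET17 were not fitted. The choice between probe sets of a gene changed nothing, as each listed gene had 1. No paired analysis was possible because the labels give the cell types no shared replicate number. Both cell types were isolated together, but which BSC and MC arrays share an isolation is not given in the sources used here.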
